A study of Sus scrofa with 10 samples.

Results

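Elastic fibres are the stretchable part of the extracellular matrix, and 10 pig genes that encode their core, their scaffold and their accessory proteins are described here across testis grafts and control testis. The members were chosen by gene symbol: elastin (ELN), fibrillins 1 and 2 (FBN1, FBN2), fibulins 1, 2 and 5 (FBLN1, FBLN2, FBLN5), EFEMP1, which is also called fibulin-3, and the microfibril-associated proteins MFAP2, MFAP4 and MFAP5. All 10 were found among the 27376 rows of the count table, and all 10 passed the filter on low counts. GF grafts (4 libraries) came from germ cells injected together with testicular fibroblasts, and FO grafts (4 libraries) from testicular fibroblasts alone. In both, primary pig cells were mixed with concentrated Matrigel and placed in the dorsal skin of a mouse that the labels call SKID, and tissue was collected after 6 months. Control testis (2 libraries) is titled 5D, a code left unexplained, so that its age is not known here. The labels give no number of host mice or pig donors and do not tie a replicate to its own animal, so the p-values below rest on the spread between libraries, part of which may be technical. The design asks whether germ cells influence how the grafted tissue is built.

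Elastin is secreted as a soluble monomer, gathers on a scaffold of microfibrils and is then crosslinked into an insoluble core by lysyl oxidases. Fibrillins form the backbone of the microfibril, microfibril-associated proteins decorate it, and several fibulins bridge elastin to the scaffold. In the testis such fibres are found in the capsule, in vessel walls and in the wall around the tubules.

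Libraries were made from the 3' ends of polyA RNA, and held 2915534 to 4917325 counts in GF, 4033509 to 4887878 in FO and 5844944 and 7013911 in control testis. Levels below are counts per 1000000 (CPM) after TMM scaling, and fold changes are on the log2 scale with their SE. The floor in a single library, 3 counts, corresponds to 0.452 to 1.04 CPM. The counts cannot tell fewer cells of a type from less RNA per cell. Grafts grew in a mouse, and the pig build Sscrofa11.1 is the only genome named by the submitters. How RNA of host cells was counted is not given in the sources used here, and its part in the graft values was not tested. GF 3 and GF 4 had the lowest totals. Of 11 skeletal muscle markers in the table, 10 were counted in GF 3 and all 11 in FO 1, with summed levels of 304 and 961 CPM, against 9.01 to 48.7 CPM in the other libraries. Results that rest on these libraries are given with and without them.

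**Figure D1:**
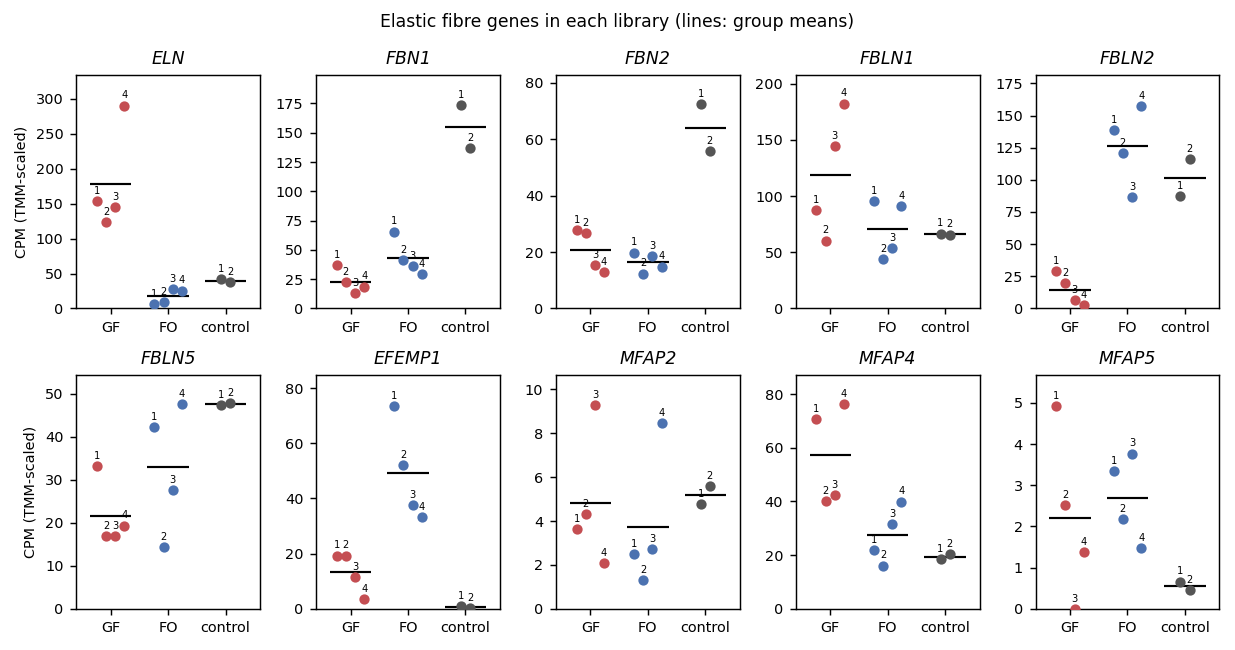
Level of each of the 10 elastic fibre genes in CPM (TMM-scaled, linear axis from 0) in GF grafts, FO grafts and control testis; each point is a library with its replicate number, and lines are group means. ELN lies at 124 to 290 CPM in GF, above every FO and control library, while FBLN2 lies at 2.76 to 29.3 CPM in GF, below every FO and control library.

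The first question is how grafts with germ cells differ from grafts of fibroblasts alone. ELN and MFAP4 rose, FBLN2 and EFEMP1 fell, and the other 6 members did not pass. These 4 of 10 members stand beside 30.5% of 13782 genes called in the same comparison (17.6% higher and 13% lower), so the share of members called is near that of all genes. The groups did not overlap for the same 4 genes, beside 36% of all genes tested. The median log2 fold change was 0.06 over the members and -0.02 over all genes, and the median size of a change over all genes, whatever its sign, was 0.71. Scaling by total counts alone gave 69.1% of calls as higher, against 57.5% with TMM, and moved the median of all genes to 0.13. The 4 calls and their directions held under that scaling.

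ELN encodes elastin itself and lies on chromosome 3 (11214194 to 11245891, Sscrofa11.1). It was counted at 154, 124, 145 and 290 CPM in GF 1 to GF 4, against 6.68, 9.34, 28.1 and 25.6 CPM in FO 1 to FO 4. The lowest GF library stood above the highest FO library by a wide margin. GF averaged 178 ± 75.8 CPM and FO 17.4 ± 11 CPM (SD, n = 4 each). The log2 fold change was 3.35 ± 0.47 (edgeR quasi-likelihood test, adjusted p = 5.52e-04), with a 95% interval of 2.32 to 4.38. It stayed between 3.02 and 3.69 when each library was left out in turn, with an adjusted p of at most 0.00303.

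MFAP4 encodes a fibrinogen-like protein that binds elastin and fibrillin and lies on chromosome 12 (60141488 to 60144214). Its level was 70.8, 40.2, 42.4 and 76.3 CPM in GF 1 to GF 4, against 22, 16.1, 31.4 and 39.98 CPM in FO 1 to FO 4. GF 2 and FO 4 nearly touched, so the groups were separate by a narrow margin. The log2 fold change was 1.07 ± 0.34 (edgeR, adjusted p = 0.0321). This call ended without GF 1, GF 4, FO 1, FO 2 or FO 3, with adjusted p-values of 0.0646, 0.0669, 0.0951, 0.0902 and 0.0545.

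FBLN2 encodes fibulin-2, a matrix protein that binds fibrillin-1 and basement membrane proteins, and lies on chromosome 13 (70757255 to 70830430). It had 29.3, 19.6, 6.2 and 2.76 CPM in GF 1 to GF 4, against 139, 121, 86.5 and 158 CPM in FO 1 to FO 4. GF 3 and GF 4 were the lowest of all libraries, with 18 and 8 counts. The log2 fold change was -3.09 ± 0.54 (edgeR, adjusted p = 0.00173). Without GF 3 and GF 4 it was -2.38 ± 0.27 (adjusted p = 3.10e-05).

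EFEMP1, on chromosome 3 (85407677 to 85473251), encodes fibulin-3, a secreted protein related to the fibulins that assemble elastin. Its level was 19.3, 19.3, 11.4 and 3.45 CPM in GF 1 to GF 4, against 73.5, 52.1, 37.7 and 33.2 CPM in FO 1 to FO 4. GF 4 was again the lowest graft library, and the highest GF library stayed under the lowest FO library. The log2 fold change was -1.86 ± 0.45 (edgeR, adjusted p = 0.00957). Each single library could be left out without losing the call (adjusted p at most 0.0437), but it ended without FO 1 and GF 3 together (-1.54 ± 0.54, adjusted p = 0.0851).

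The 2 fibrillins did not pass between the graft groups. FBN1, on chromosome 1 (123102011 to 123359649), encodes the main fibrillin of mature microfibrils. Its level was 36.8, 22.5, 13.1 and 18.6 CPM in GF 1 to GF 4 and 65.7, 41, 36.4 and 29.2 CPM in FO 1 to FO 4, so that GF 1 lay within the FO range. The log2 fold change was -0.91 ± 0.36 (edgeR, adjusted p = 0.0719, 95% interval -1.69 to -0.13). It passed without GF 1 (-1.25, adjusted p = 0.0187), with all 10 libraries in the fit (adjusted p = 0.0472) and with the DESeq2 Wald test (adjusted p = 0.0444).

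FBN2, on chromosome 2 (131150665 to 131370241), encodes a fibrillin best known from developing tissue. It had 27.8, 26.8, 15.5 and 12.8 CPM in GF 1 to GF 4 and 19.8, 12.4, 18.6 and 14.8 CPM in FO 1 to FO 4. GF 1 and GF 2 were above all FO libraries, whereas GF 3 and GF 4 lay among them. The log2 fold change was 0.35 ± 0.34 (edgeR, adjusted p = 0.47, 95% interval -0.40 to 1.09). Without GF 3 and GF 4 it was 0.73 ± 0.27 and passed (adjusted p = 0.0435).

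Scaling cancels in a ratio of 2 genes within a library, and the fibrillins were set side by side in this way after their values had been seen, so no test is given. FBN2 made up 43, 54.4, 54.2 and 40.7% of the fibrillin-1 and -2 counts in GF 1 to GF 4, against 23.1, 23.2, 33.8 and 33.7% in FO 1 to FO 4 and 29.4 and 28.9% in control 1 and control 2. Every GF library was above every FO and control library, and FO spanned the control values. For GF 3, with 83 fibrillin counts, the exact binomial 95% interval was 42.9 to 65.2%, and for FO 3 it was 28.1 to 39.9%. The intervals of GF 1 (37.4 to 48.8%) and GF 4 (30.5 to 51.5%) overlapped that of FO 3. That of GF 4 also overlapped the interval of control 1 (27.1 to 31.8%). Intervals and floors cover counting error only, since reads without molecular identifiers are not independent molecules. The ratio of ELN to FBN1 counts was 4.18 to 15.6 in GF, against 0.102 to 0.877 in FO and 0.243 and 0.274 in control testis.

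Among the remaining fibulins, FBLN1 (chromosome 5, 3839498 to 3927178), which is found within elastic fibres and basement membranes, averaged 119 ± 55 CPM in GF against 70.9 ± 25.9 CPM in FO. GF 3 and GF 4, at 144 and 182 CPM, were above all FO libraries, while GF 1 and GF 2, at 87.7 and 60.3 CPM, lay among them, and the gene did not pass (0.75 ± 0.37, edgeR adjusted p = 0.144, 95% interval -0.06 to 1.56). FBLN5 (chromosome 7, 113423629 to 113526412), whose product tethers elastin to microfibrils and to integrins, averaged 21.6 ± 7.81 CPM in GF against 33 ± 15 CPM in FO. The groups overlapped and it did not pass (-0.61 ± 0.39, adjusted p = 0.258, 95% interval -1.45 to 0.24).

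The 2 small microfibril-associated glycoproteins were the least counted members. MFAP2 (chromosome 6, 75607515 to 75615680), a fibrillin-binding protein, had 6 to 27 counts in the GF libraries and 6 to 40 in FO, and its log2 fold change of 0.36 ± 0.69 had a 95% interval of -1.15 to 1.86 (edgeR, adjusted p = 0.725). MFAP5 (chromosome 5, 62742520 to 62757522), its relative, had 23, 14, 0 and 4 counts in GF 1 to GF 4 and 7 to 18 in FO (-0.23 ± 0.82, adjusted p = 0.852). Its count of 0 in GF 3 allows up to 1.03 CPM. No difference was detectable in either gene at this depth.

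**Figure D2:**
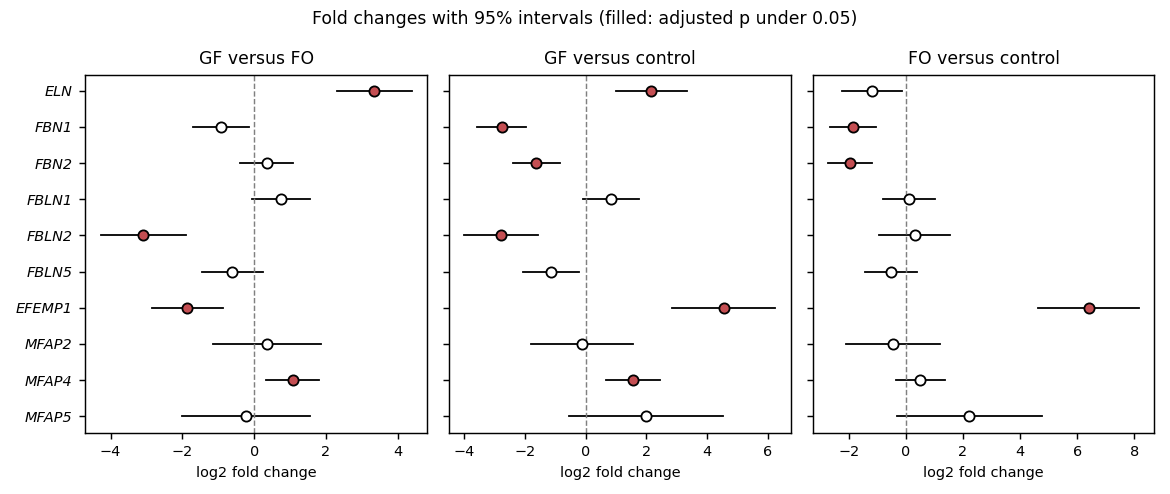
Log2 fold change of each of the 10 genes (points) with its 95% interval (lines) in GF versus FO, GF versus control and FO versus control; filled points have an adjusted p under 0.05. ELN is filled at 3.35 and 2.16 in the comparisons of GF, and EFEMP1 is filled at 4.55 and 6.40 in both comparisons with control testis.

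The comparison of GF grafts with control testis asks how far the grafts with germ cells are from these 2 control libraries. ELN, MFAP4 and EFEMP1 rose, FBN1, FBN2 and FBLN2 fell, and the other 4 did not pass. The 6 of 10 members called stand beside 25.8% of 15877 genes (14% higher and 11.8% lower). The groups did not overlap for 7 of 10 members, beside 47.2% of all genes. The median log2 fold change was 0.36 over the members and 0.03 over all genes.

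ELN in GF, at 124 to 290 CPM, was above control testis at 42.1 and 37.5 CPM, a log2 fold change of 2.16 ± 0.55 (edgeR, adjusted p = 0.0115). MFAP4, at 40.2 to 76.3 CPM in GF against 18.4 and 20.5 CPM in control testis, rose by 1.56 ± 0.42 (adjusted p = 0.0154). Neither call held without control 1 (adjusted p = 0.0939 for ELN and 0.143 for MFAP4) or without control 2 (0.127 and 0.125). EFEMP1 had 5 and 2 counts in the control libraries, or 0.822 and 0.302 CPM, and rose in GF by 4.55 ± 0.79 (adjusted p = 0.00128). Without control 1 the estimate was 5.35, which rests on the 2 counts of control 2.

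FBN1 fell to 22.8 ± 10.1 CPM in GF, against 155 ± 25.9 CPM in control testis (SD, n = 4 and 2), a log2 fold change of -2.76 ± 0.38 (edgeR, adjusted p = 2.95e-04). FBN2 fell to 20.7 ± 7.71 CPM in GF, against 64 ± 11.8 CPM in control testis (-1.61 ± 0.36, adjusted p = 0.00542), and did not pass without control 1 (adjusted p = 0.0851). For both fibrillins every GF library was below both control libraries. FBLN2 fell by 2.77 ± 0.56 on the log2 scale (adjusted p = 0.00352), to 14.5 ± 12.3 CPM in GF, against 102 ± 20.7 CPM in control testis. Without GF 3 and GF 4 its log2 fold change was -2.07 ± 0.28 (adjusted p = 4.87e-05).

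FBLN5 was below both control libraries in every GF library, at 16.9 to 33.2 CPM in GF against 47.4 and 47.8 CPM in control testis, and did not pass (-1.14 ± 0.42, edgeR adjusted p = 0.0644), although it did without GF 1 (adjusted p = 0.0226) or without FO 2 (0.038). FBLN1, at 119 ± 55 CPM in GF against 66.2 ± 0.613 CPM in control testis, did not pass (0.84, adjusted p = 0.17). Neither did MFAP2 (-0.11, adjusted p = 0.934) or MFAP5 (1.99 ± 1.17, adjusted p = 0.23), which had 4 and 3 counts in the control libraries. Without GF 3 and GF 4, MFAP5 passed (2.67, adjusted p = 0.0154).

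Grafts of fibroblasts alone were then set against the same control libraries, so the 2 comparisons with control testis share them. EFEMP1 rose, FBN1 and FBN2 fell, and the other 7 members did not pass. These 3 of 10 members stand beside 18.7% of 15877 genes (8.12% higher and 10.6% lower). The groups did not overlap for 5 of 10 members, beside 58.7% of all genes, and the medians were -0.18 over the members and -0.04 over all genes.

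EFEMP1, at 33.2 to 73.5 CPM in FO against 0.822 and 0.302 CPM in control testis, rose by 6.40 ± 0.82 (edgeR, adjusted p = 1.81e-04), and by 7.21 without control 1. FBN1 averaged 43.1 ± 15.8 CPM in FO and 155 ± 25.9 CPM in control testis (-1.85 ± 0.37, adjusted p = 0.00415), and did not pass without control 1 (adjusted p = 0.0624). FBN2 averaged 16.4 ± 3.42 CPM in FO and 64 ± 11.8 CPM in control testis (-1.97 ± 0.36, adjusted p = 0.00208). All FO libraries were below both control libraries for each fibrillin.

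ELN was lower than in control testis in all FO libraries, at 6.68 to 28.1 CPM in FO against 42.1 and 37.5 CPM in control testis, but did not pass (-1.18 ± 0.49, edgeR adjusted p = 0.111). FBLN2, which fell in GF, averaged 126 ± 30.3 CPM in FO and 102 ± 20.7 CPM in control testis, with overlapping groups (0.31 ± 0.58, adjusted p = 0.766, 95% interval -0.93 to 1.54). MFAP4 (0.49 ± 0.40, adjusted p = 0.439), FBLN5 (-0.53), FBLN1 (0.10) and MFAP2 (-0.46) overlapped as well. MFAP5 was at 1.48 to 3.77 CPM in FO, above 0.658 and 0.452 CPM in control testis, and did not pass (2.22 ± 1.18, adjusted p = 0.217), although it did with only these 2 groups in the fit (adjusted p = 0.0194).

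In the order of mean levels, ELN was highest in GF, followed by control testis and FO, and the last 2 did not differ beyond the test. FBN1 and FBN2 were highest in control testis, and the graft groups did not differ beyond the test. EFEMP1 was highest in FO, followed by GF and control testis, and all 3 pairs passed. FBLN2 was highest in FO, followed by control testis, which did not differ from it beyond the test, and lowest in GF, which differed from both. MFAP4 was highest in GF, which differed from both FO and control testis.

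The members together took 336 to 609 CPM in GF, 314 to 470 CPM in FO and 487 and 514 CPM in control testis, so that the GF and FO ranges overlapped while the make-up differed. Shares of the members' counts are compared here between libraries and not between genes, because the yield of a 3' tag differs from gene to gene. ELN made up 38.3 ± 6.44% of these counts in GF, against 4.67 ± 3.16% in FO and 7.95 ± 0.342% in control testis. FBLN2 made up 3.53 ± 2.96% in GF, against 32.4 ± 5.43% in FO and 20.4 ± 4.91% in control testis. The share of FBN1 was 5.22 ± 2.44% in GF, 11.2 ± 3.33% in FO and 30.9 ± 3.996% in control testis. EFEMP1 held 3.31 ± 2.18% in GF and 12.8 ± 4.22% in FO, against 0.111 ± 0.0694% in control testis (SD, n = 4, 4 and 2).

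**Figure D3:**
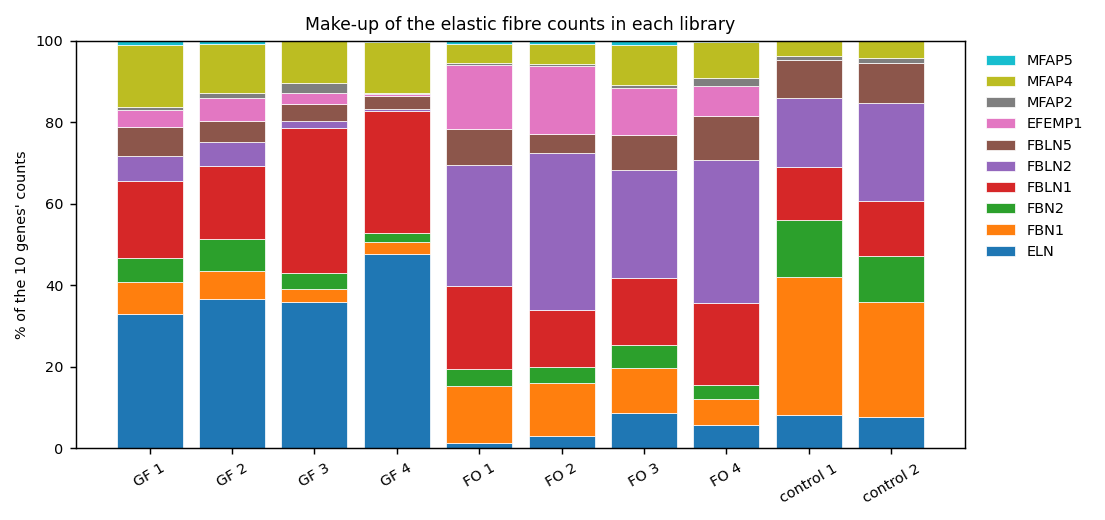
Share of the 10 genes' summed counts (% on the vertical axis, bars stacked to 100) that each gene took in every library of GF, FO and control testis. ELN takes 32.9 to 47.6% in GF and at most 8.6% in FO, where FBLN2 takes 26.5 to 38.6%.

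Other genes of elastic fibre assembly, binding and turnover were taken from 5 lists of 49 genes, of which 37 were tested in GF versus FO. Of these, 2 rose, 10 fell and 25 did not pass, with a median log2 fold change of -0.72. The 12 calls among 37 genes stand beside 30.5% of all genes called, so that share is near that of all genes. Over all genes 17.6% were called higher and 13% lower, with a median of -0.02. Among the 37, none of 5 genes of crosslinking and assembly passed with edgeR. Only FKBP10 had an unadjusted p under 0.05 (edgeR) or passed with DESeq2 (adjusted p = 0.0455). The lysyl oxidases, which crosslink elastin and collagen, gave 0.21 ± 0.30 for LOXL1 (22.7 ± 5.12 CPM in GF against 19.6 ± 4.53 CPM in FO) and -0.32 ± 0.82 for LOX (9.74 ± 9.91 CPM in GF against 12.4 ± 3.37 CPM in FO). LOX was split within GF, at 18.2 and 18.4 CPM in GF 1 and GF 2, above all FO libraries (9.55 to 17.3 CPM). In GF 3 and GF 4 it had 7 and 0 counts, or 2.41 and 0 CPM, below all FO libraries. LOXL3 (-1.84, edgeR adjusted p = 0.146), which was at 0 in GF 3 and GF 4, passed without GF 1 (-3.19, adjusted p = 0.0258). FKBP10, a chaperone of collagen and tropoelastin, averaged 99.5 ± 35.1 CPM in GF against 166 ± 35.4 CPM in FO (-0.74 ± 0.28, adjusted p = 0.065) and passed without GF 4 (adjusted p = 0.0177).

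Of 12 microfibril partners tested, 1 rose, 3 fell and 8 did not pass. LTBP1 and LTBP2, which belong to the fibrillin superfamily and bind microfibrils, fell. LTBP2 averaged 30.7 ± 14.9 CPM in GF against 116 ± 26.9 CPM in FO (-1.91 ± 0.34, edgeR adjusted p = 0.0019), and LTBP1 15.2 ± 8.1 CPM in GF against 58.95 ± 14.6 CPM in FO (-1.94 ± 0.37, adjusted p = 0.00266). VCAN, the proteoglycan versican, which binds fibrillin and fibulins, also fell, to 13.5 ± 8.63 CPM in GF against 64.7 ± 25.5 CPM in FO (-2.23 ± 0.47, adjusted p = 0.0045). ADAMTSL2, a secreted glycoprotein that binds fibrillin-1, rose by 2.34 ± 0.67 (adjusted p = 0.021), a call that ended without GF 4 (0.0551), FO 1 (0.0675) or FO 2 (0.0509). Without GF 3 and GF 4 its log2 fold change was 1.51 (adjusted p = 0.0689).

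Of 5 other fibulins and MFAP-named genes tested, MFAP3L rose, FBLN7 fell and 3 did not pass. FBLN7, a further fibulin, averaged 3.3 ± 1.79 CPM in GF against 11.13 ± 2.06 CPM in FO (-1.74 ± 0.50, edgeR adjusted p = 0.021), and did not pass without FO 1 (0.0752), FO 2 (0.0581) or FO 4 (0.0551). MFAP3L, which shares the MFAP name, averaged 69.9 ± 33.7 CPM in GF against 23.7 ± 14.1 CPM in FO (1.56 ± 0.48, adjusted p = 0.028), and did not pass without GF 2 (0.0752), FO 1 (0.0886) or FO 4 (0.058). MFAP3 (-0.72, adjusted p = 0.171) and the hemicentin HMCN1 (-0.23, adjusted p = 0.477) did not pass.

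Of 6 integrin chains tested, 2 fell and 4 did not pass. ITGAV, the alpha chain of integrins that bind the RGD motif of fibrillins and fibulin-5, averaged 122 ± 45.8 CPM in GF against 408 ± 97.3 CPM in FO (-1.74 ± 0.30, edgeR adjusted p = 0.00149). ITGB5, one of its beta partners, fell by 0.84 ± 0.27 (adjusted p = 0.0329), and this call ended without GF 3, GF 4 or any single FO library (adjusted p between 0.0503 and 0.0965) and with scaling by total counts alone (0.111). ITGB3 (-1.55, adjusted p = 0.129) and ITGA8 (0.90, adjusted p = 0.0795) did not pass.

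Of 9 proteases and inhibitors tested, 4 fell and 5 did not pass. MMP2, a gelatinase that can also cleave elastin, averaged 32.05 ± 11.5 CPM in GF against 118 ± 36.1 CPM in FO (-1.88 ± 0.31, edgeR adjusted p = 0.0013). CTSS, an elastin-degrading cathepsin of myeloid cells, averaged 18.5 ± 6.06 CPM in GF against 69.2 ± 39.9 CPM in FO (-1.89 ± 0.42, adjusted p = 0.00604). The call on CTSS ended without FO 1 and GF 3 together (0.0637) and without GF 3 and GF 4 together (0.071). The protease inhibitor TIMP1 fell by 1.73 ± 0.27 (adjusted p = 8.46e-04), with 44.1 ± 11.7 CPM in GF against 146 ± 27.7 CPM in FO. TIMP3, an inhibitor held in the matrix, fell by 0.93 ± 0.31 (adjusted p = 0.0392), which ended without GF 3, GF 4, FO 1, FO 2 or FO 3 (adjusted p between 0.0592 and 0.117) and with scaling by total counts alone (0.119).

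**Figure D4:**
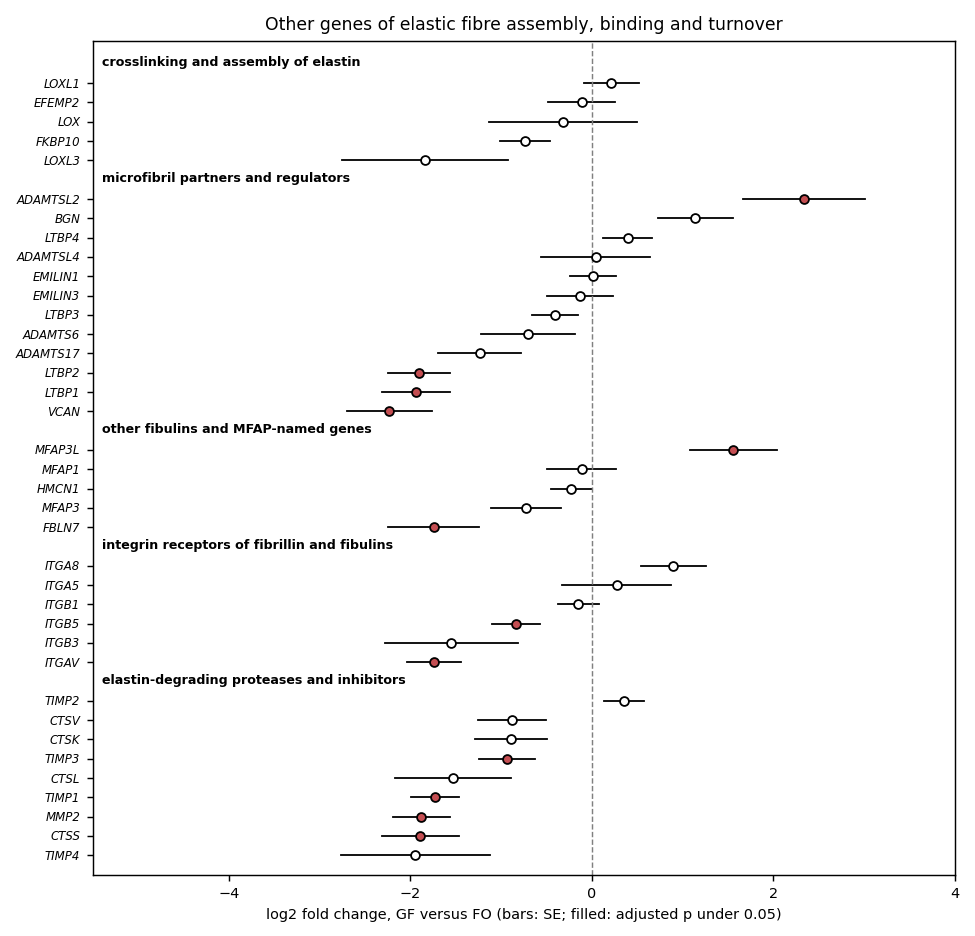
Log2 fold change in GF versus FO of the 37 tested genes of the 5 further lists, with bars of 1 SE; filled points have an adjusted p under 0.05. Filled points lie at -0.84 to -2.23 for the 10 genes that fell and at 1.56 and 2.34 for MFAP3L and ADAMTSL2.

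Against control testis, 41 of the 49 genes were tested. In GF, 3 rose and 7 fell, beside 25.8% of all genes called in GF versus control. In FO, 9 rose and 5 fell, beside 18.7% of all genes called in FO versus control. Of those calls, 2 of 10 in GF and 2 of 14 in FO held when each library was left out in turn, the controls included. Outside the naming rule and chosen after its values were seen, FBN3, the third fibrillin gene, had 54 and 49 counts in control 1 and control 2 and 0 counts in all FO libraries, which makes FO at least 47.8-fold lower against a floor of 3 counts over the group. In GF it had 2 counts in GF 2 and none in the other 3 libraries. EMILIN1, an elastin-associated glycoprotein chosen in the same way, averaged 46.3 ± 8.53 CPM in GF against 46.1 ± 9.4 CPM in FO, against 215 ± 13.2 CPM in control testis. Its log2 fold changes were -2.22 in both GF and FO against control testis (edgeR, adjusted p = 1.06e-04 and 9.0e-05), and both calls held without each library.

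Markers of other cells moved between the same groups, and their part in the values above was not tested. The summed level of 10 smooth muscle and peritubular myoid markers was 1267 to 1727 CPM in GF and 913 to 988 CPM in FO. In control testis it was 679 and 772 CPM. ELN and MFAP4 rose in GF versus FO. In every FO library the sum was above both control libraries, whereas ELN, at 6.68 to 28.1 CPM, was below them (42.1 and 37.5 CPM). Of these 10 markers 4 rose in GF versus FO, namely MYH11, ACTA2, TAGLN and CNN1, and 6 did not pass. MYLK had the highest mean of the 10 in each group and did not pass in GF versus FO. It averaged 621 ± 110 CPM in GF, 555 ± 44.8 CPM in FO and 286 ± 30.1 CPM in control testis. In FO versus control, MYLK, SYNPO2 and ACTG2 rose and 6 markers did not pass. ACTA2 fell in that comparison (-1.05 ± 0.24, edgeR adjusted p = 0.00825). In GF versus control 5 markers rose and 5 did not pass. The summed level of 11 fibroblast markers was 1522 to 2745 CPM in GF and 4080 to 6059 CPM in FO. In control testis it was 4510 and 4600.0 CPM. FBLN2 and EFEMP1 fell in GF versus FO. EFEMP1 was at 0.822 and 0.302 CPM in control testis, below every GF and FO library. Of the 11 markers, 6 fell in GF versus FO, LUM rose and 4 did not pass, and TCF21 was at 0 in GF 3 and GF 4. In FO versus control, POSTN rose, PDGFRB, LUM and DPT fell and 7 did not pass.

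The 8 endothelial markers summed to 32.6 to 60.96 CPM in GF, 99.7 to 179.6 CPM in FO and 237 and 243 CPM in control testis, with CLDN5 at 0 in every GF library. Of the 6 tested in GF versus FO, EMCN fell, with 7.22 ± 4.58 CPM in GF against 67 ± 14.1 CPM in FO, and 5 did not pass, of which VWF (0.37) and EGFL7 (0.52) had positive log2 fold changes. The 7 macrophage markers summed to 1.04 to 10.9 CPM in GF, 26.9 to 120.1 CPM in FO and 249 and 324 CPM in control testis, and all 4 that were tested fell in GF versus FO. The 8 cartilage markers summed to 15 to 18.6 CPM in GF 1, GF 2 and GF 4 and to 112 CPM in GF 3, where COL2A1 and ACAN were at 0, against 18.4 to 33.7 CPM in FO and 21.4 and 23.2 CPM in control testis. COMP gave 107.8 CPM of the sum in GF 3, was counted in every GF library and was at 0 in all FO and control libraries. Of the 2 cartilage markers tested in GF versus FO, COMP rose and HAPLN1 fell. Sertoli markers summed to 14447 to 45143 CPM in GF, 4198 to 8255 CPM in FO and 4566 and 5110 CPM in control testis. CLU, which encodes clusterin, made up most of these sums, with 28057 ± 15608 CPM in GF, 5725 ± 1682 CPM in FO and 3830.4 ± 329 CPM in control testis. Of 7 Sertoli markers, AMH, SOX9, CLU and INHA rose in GF versus FO, AMHR2 fell and 2 did not pass. In GF versus control, SOX9 and CLU rose, AMH fell, with 100.2 ± 74.1 CPM in GF against 482 ± 53.6 CPM in control testis, and 4 did not pass. Germ cell markers summed to 425 to 2498 CPM in GF, 2.33 to 5.86 CPM in FO and 49.3 and 49.6 CPM in control testis. PRM1 and TNP1 had the highest means of these markers in GF (405 ± 397 and 279 ± 285 CPM). PRM1 and PRM2 were at 0 in both control libraries. DDX4 averaged 66 ± 24.6 CPM in GF against 20.8 ± 0.0605 CPM in control testis. All 7 rose in GF versus FO. In GF versus control 5 rose, and DAZL and MAEL did not pass. Leydig markers summed to 1661 to 3261 CPM in GF, 471 to 3703 CPM in FO and 14087 and 16671 CPM in control testis. INSL3 had the highest mean of the 6 in each group, with 9468 ± 1813 CPM in control testis. HSD17B3 rose in GF versus FO, with 256 ± 50.8 CPM in GF against 47.5 ± 30.3 CPM in FO, and 5 did not pass. In GF versus control 5 fell and HSD17B3 did not pass, and in FO versus control all 6 fell. The 5 skin epithelium markers summed to 36.6 to 73.2 CPM in GF, 68.1 to 88.5 CPM in FO and 67.9 and 69.4 CPM in control testis. KRT10 gave most of each skin sum, averaging 56.0 CPM in GF, 80.4 CPM in FO and 67.1 CPM in control testis. KRT5, KRT1, TP63 and DSG3 each had at most 7 counts over the GF libraries, 5 over FO and 13 over control testis.

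In the RefSeq annotation the intervals of 3 members overlap another gene, EFEMP1 that of CCDC85A, FBLN5 that of TRIP11 and MFAP4 that of MAPK7, and the use of strand in counting is not given in the sources used here. CCDC85A (-1.64 ± 0.71, edgeR adjusted p = 0.0976) and MAPK7 (0.84 ± 0.46, adjusted p = 0.191) had the same sign as their neighbour in GF versus FO and did not pass. In FO versus control CCDC85A gave -0.19 ± 0.73, where EFEMP1 gave 6.40, and MAPK7 fell by 1.61 ± 0.49 (adjusted p = 0.0363), where MFAP4 gave 0.49. TRIP11 had the same sign as FBLN5 in all 3 comparisons. It gave -0.49 ± 0.24 in GF versus FO (adjusted p = 0.142), where FBLN5 gave -0.61, and fell by 1.29 ± 0.26 in GF versus control (adjusted p = 0.00366), where FBLN5 gave -1.14. In FO versus control TRIP11 gave -0.80 ± 0.26 (adjusted p = 0.0505), where FBLN5 gave -0.53.

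The genes whose profile over the 10 libraries was most like that of ELN were sought among 7386 genes, by the root mean square difference of log2 CPM after each gene was centred on its mean. The 5 nearest were EXOC3L1 (0.62), NCKAP5L (0.65), ST5 (0.67), BCR (0.68) and TIGD5 (0.69), beside a median of 1.80 over these genes. EXOC3L1, for example, averaged 178 ± 99.8 CPM in GF, against 15.6 ± 6.36 CPM in FO and 21.9 ± 4.35 CPM in control testis. For FBN1 the 5 nearest were LAMA2 (0.35), which encodes a laminin chain, NREP (0.39), ATPIF1 (0.39), SAT1 (0.40) and FAP (0.41), a protease of activated fibroblasts, beside a median of 1.17. LAMA2 averaged 18.8 ± 7.6 CPM in GF against 39.8 ± 7.9 CPM in FO, against 87.7 ± 4.07 CPM in control testis.

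**Figure D5:**
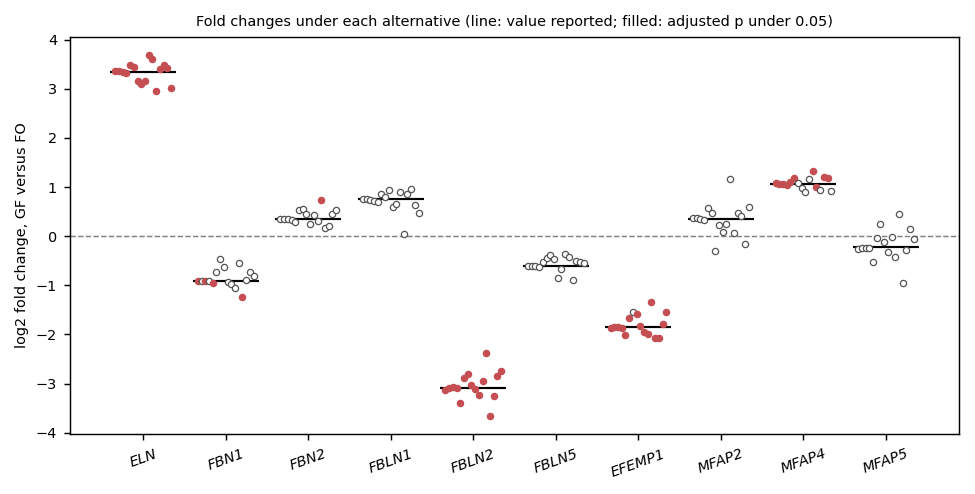
Log2 fold change of each of the 10 genes in GF versus FO under 16 alternatives (points; filled where the adjusted p is under 0.05), beside the value reported (lines). ELN and FBLN2 are filled under every alternative, EFEMP1 under all but one, and MFAP4 is unfilled under 6.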

How the data were processed

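Pig (Sus scrofa) polyA RNA was isolated with Trizol and made into QuantSeq 3' libraries, per the labels' protocols. Whole-number counts per gene symbol, not normalized, were deposited in 10 columns, matched to samples by the group letters and number in the titles, with F taken as FO. The submitters' processing notes name Sscrofa11.1 and DESeq2 1.42.0; no aligner, counter or strand setting is given in the sources used here. Positions come from RefSeq genes of Sscrofa11.1.

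Genes were filtered with filterByExpr (minimum count 10), scaled with TMM and tested with the quasi-likelihood F test of edgeR 4.0.16 (R 4.3.3, robust), and called at a Benjamini-Hochberg adjusted p under 0.05 over all genes. The graft groups were compared in a fit of their 8 libraries, and each was compared with control testis in a fit of all 10, because control has 2. The SE of a log2 fold change is its size over the square root of F. Log2 CPM used a prior count of 2. The fits were also tested on simulated data. In GF versus FO, 6 of 100 genes with 2-fold changes and 58 of 100 with 4-fold changes were recovered. In GF versus control these were 3 and 43 of 100, and in FO versus control 3 and 38 of 100. False calls numbered 2, 2 and 1, in the same order of comparisons. Most 2-fold changes were thus missed in the simulated data, where 100 genes changed 2-fold and 100 changed 4-fold. Far more genes were called in the real data (4205 in GF versus FO), so the cutoff on p was less strict there. The recovered numbers thus need not hold for the real data, and a gene that did not pass may still differ. Alternatives were DESeq2 1.42.0, RLE and total-count scaling, no filter, a replicate block, other libraries in the fit and leaving libraries out.

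All 10 genes are named; of each further list, up to 4 genes with the lowest p in GF versus FO; and 5 genes, with average log2 CPM of at least 4, nearest to ELN and to FBN1. The members and lists were chosen with earlier results of these data known. No batch is given in the labels. Replicate libraries differed by more than counting noise, so none were merged. The chi-square per degree of freedom was 11.8 between GF 1 and GF 2 and 22.7 between GF 3 and GF 4. It was 50.6 to 58.9 for GF 1 or GF 2 against GF 3 or GF 4. Pairs of FO libraries gave 10 to 18.9, and the control libraries 7.1. The GF libraries were thus not 4 alike replicates, and the cause was not tested.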

Additional observations from a re-analysis of the deposited data

Results flagged for a closer look

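Of 114 groups of 4 libraries checked for a library far from the other 3, 6 had one, and chance gives about 1 in 20. FBLN5 stood at 33.2 CPM in GF 1, whereas the rest of GF lay at 16.9 to 19.3 CPM. The summed fibroblast markers were 2745 CPM in GF 1, whereas the rest of GF lay at 1522 to 1722 CPM. Skeletal muscle markers summed to 304 CPM in GF 3, whereas the rest of GF lay at 10.7 to 26.1 CPM, and to 961 CPM in FO 1, against 9.01 to 14.2 CPM. Cartilage markers summed to 112 CPM in GF 3, against 15 to 18.6 CPM. Germ cell markers summed to 2.33 CPM in FO 4, against 5.65 to 5.86 CPM in the other FO libraries.

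ELN lay above both control libraries in all 4 GF libraries and below them in all 4 FO libraries. The difference between the graft groups is the tested log2 fold change of 3.35 (edgeR, adjusted p = 5.52e-04).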

How the results depend on the processing

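The number of genes called in GF versus FO was 4205, and 2312 without FO 1 and GF 3 together, when 2 of 10 members (ELN and FBLN2) passed against 4. In GF versus control, 4091 genes were called, and 2201 with only these groups in the fit. In FO versus control, 2972 were called, and 6600 with only these groups. Leaving out each library gave 2902 to 4842, 1141 to 4729 and 796 to 3987 genes, and 3 to 4, 3 to 7 and 2 to 3 members, in the same order of comparisons. The lowest values came without a control library (1395 or 1141 genes in GF versus control, 977 or 796 in FO versus control), where the lone control is assumed to vary like the other groups.

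Signs turned for members that had not passed. In GF versus FO, MFAP2 gave -0.31 and MFAP5 0.26 without FO 1 and GF 3, MFAP5 gave 0.45 without GF 3 and GF 4, and single libraries left out gave -0.16 to 1.16 for MFAP2 and -0.95 to 0.14 for MFAP5. In GF versus control MFAP2 ranged from -0.62 to 0.13. In FO versus control FBLN1 gave -0.036 without FO 1 and GF 3, and -0.076 to 0.27 with single libraries left out. The cause was not tested.

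With the replicate number as a block, 4335, 3282 and 3219 genes and 5, 7 and 4 members passed. In FO versus control, ELN then passed (-1.91, adjusted p = 0.00481) and FBLN1 gave -0.28. In GF versus FO, FBN1 passed (adjusted p = 0.0234). In GF versus control, FBLN5 passed (0.0424) and ELN gave 1.57. Deviations of libraries with the same number correlated at 0.05 to 0.22 in GF versus FO and -0.04 to 0.03 with control testis, and 4 of 8 graft libraries correlated best with their own number. Not every pair of GF and FO libraries was over 0.1, so the numbers were not taken as pairs. Whether libraries with the same number share an animal is not given in the labels. MFAP2 and MFAP5 were the least counted members, with 6 to 40 and 0 to 23 counts in the graft libraries.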
